A study of Mus musculus with 48 samples.

Results

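IGHE is the gene of the heavy-chain constant region of IgE. It was followed through 48 BCR heavy-chain libraries of the lacrimal gland (LG) and the spleen of 24 mice. Every deposited sequence whose constant gene was called IGHE was taken, which gave 661 unique sequences with 1490 counts in 30 libraries, out of 4834214 sequences with 14545027 counts assigned to 8 constant genes. A count is 1 consensus sequence built by the authors from reads that shared a molecular identifier (UMI). NOD-FMT mice (n = 10) were B6 mice gavaged from 5 weeks of age, for 3 weeks, with a suspension of feces that 30 male NOD.B10.H2b donors over 20 weeks old had given. That donor strain develops an autoimmune dry eye. PBS-T mice (n = 9) received PBS on the same schedule, and both groups had their feces mixed between cages and drank ampicillin, vancomycin and metronidazole before the gavage. NC mice (n = 5) were untreated B6 mice, whose age is not given in the sources used here. Each mouse gave 1 LG and 1 spleen library of whole tissue, so fewer IgE cells and less IgE mRNA per cell cannot be told apart.

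IgE is the antibody class that arms mast cells and basophils through their high-affinity receptor, and it drives immediate allergic reactions and defence against worms. A B cell makes it after its heavy-chain locus has been cut and rejoined, so that the same V(D)J exon is read together with the IGHE exons. The switch can start from IgM directly, or pass through IgG1 first, and the V(D)J exon can gather somatic mutations before or after it. Cells of 1 V(D)J rearrangement can therefore differ in class, though a clonotype defined by its HCDR3 amino acids can also join separate rearrangements. IgE is the scarcest antibody class in the blood of healthy mice.

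In GRCm38, Ighe (ENSMUSG00000087642.3) lies on the minus strand of chromosome 12, from 113269260 to 113273248. It is number 7 of the 8 constant genes read here in the direction of transcription, after Ighg2c and before Igha. GENCODE lists a transcript of 4 exons, Ighe-201, and one of 6 exons, Ighe-202, and both begin with the same exon of 273 bases, chr12:113272976-113273248, which encodes the first constant domain.

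The IgE sequences that held most counts are shown next, since they carry the larger clonotypes described here. The V region of the most abundant IgE sequence came from the spleen of PBS-T mouse 8. It used IGHV1-9 (chr12:114583569-114584002, minus strand) and had 12 deposited mutations. All 12 were found again against the GENCODE sequence of Ighv1-9, and they stand in capitals. Not every leading sequence matched in this way: that of NOD-FMT mouse 3 (IGHV8-5) showed 2 differences against 3 deposited mutations.
PBS-T 8, IGHV1-9: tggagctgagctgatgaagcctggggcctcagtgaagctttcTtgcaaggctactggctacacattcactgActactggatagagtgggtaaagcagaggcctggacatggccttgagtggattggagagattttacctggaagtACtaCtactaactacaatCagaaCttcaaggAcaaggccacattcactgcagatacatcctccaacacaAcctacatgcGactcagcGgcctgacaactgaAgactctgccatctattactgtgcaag
The HCDR3 is the loop where V, D and J genes meet. It is given for the 5 largest IgE clonotypes of the spleens after sequences present in 3 or more mice were taken out. Lower case marks the unbroken match to the V gene at the 5′ end and to the J gene at the 3′ end. Capitals mark the bases between them.
PBS-T 8, ARWTGTRAY: gcaagGTGGACTGGGACCAGGgcttac
NOD-FMT 3, APYDYTGSWFAY: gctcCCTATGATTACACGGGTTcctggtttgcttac
PBS-T 8, ARNPETGFSFDY: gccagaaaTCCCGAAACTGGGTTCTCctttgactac
NOD-FMT 8, ANYYGSSSFAY: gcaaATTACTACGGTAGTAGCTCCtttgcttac
NOD-FMT 10, ATMVWYFDV: gcaaCTATGGTctggtacttcgatgtc

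Total counts ranged from 71859 to 2032338 per spleen library and from 40105 to 264365 per LG library, once every nucleotide sequence present in at least 3 mice of the same tissue had been taken out. This removal took 14 IgE sequences with 74 counts from the spleens and none from the LG. It took 40 of these counts from the spleen of NOD-FMT mouse 10 (350.8 CPM before and 281.9 after) and 19 from that of PBS-T mouse 4. Of the counts of all isotypes it left 10518641 of 11666610 in the spleens and 2595348 of 2878417 in the LG. Of the IgE counts it left 1376 of 1450 and all 40. Pooled IgE therefore rose from 124 to 131 CPM in the spleens and from 13.9 to 15.4 in the LG. The paper reports a removal under a like rule that took a much smaller part of both. The spleen of PBS-T mouse 6 lost no IgE but many other counts, so that its 4 IgE counts stood for 18.6 of every 1000000 deposited counts and for 55.7 of every 1000000 of the 71859 counts that stayed. The paper reports that its own removal kept nearly all counts of this spleen. The libraries of NC LG 2 and NC LG 3 held both of their IgE clonotypes in common, each with an identical nucleotide sequence, and the comparisons of NOD-FMT with PBS-T mice do not use them. PBS-T LG 5 stood apart with 17213 clonotypes of all isotypes, against 560 to 976 in the other PBS-T LG libraries. The removal left 216868 of its 360216 counts and all 4 of its IgE counts, so that its IgE rose from 11.1 to 18.4 CPM. Of the 633 spleen IgE sequences that stayed, 6 occurred in 1 other spleen with another isotype and none as IgE, but the removal itself had taken the 14 that were present in 3 or more mice.

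IgE was the rarest isotype of all 24 spleens. It held 1376 of 10518641 spleen counts, or 131 counts per 1000000 counts of all isotypes (CPM; 95% Wilson interval 124 to 138), and single spleens ranged from 7.45 to 569 CPM. IgG1 held 111901 counts, 81.3 times as many, and IgM, the class of naive B cells, 5255 times as many. IgG3 came nearest in any spleen, at 19.5 times the IgE count. Every spleen library held IgE, though NC mouse 2 held only 1 count and 5 of the 24 spleens held 6 or fewer.

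**Figure D1:**
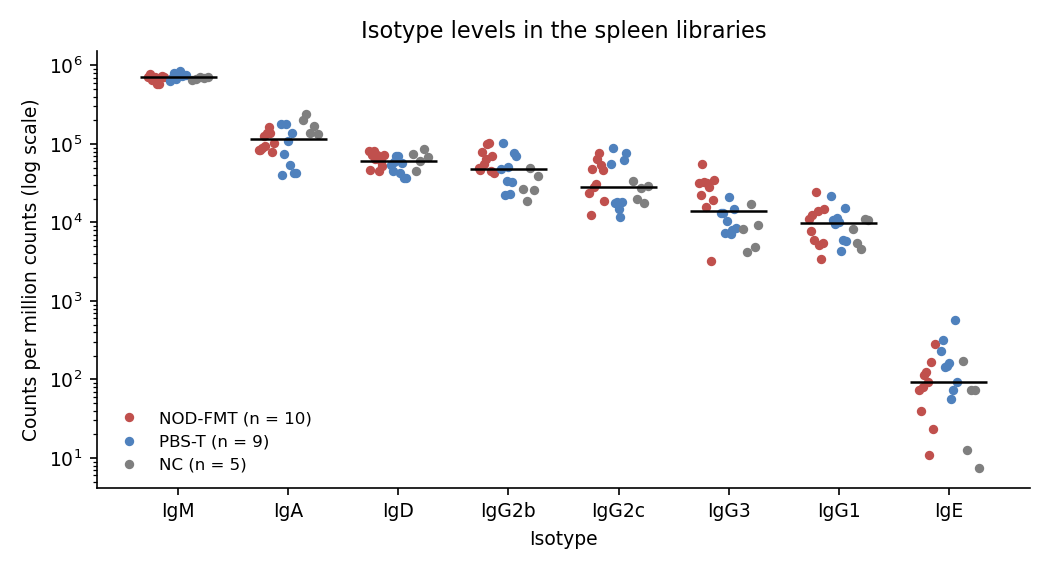
Counts per 1000000 counts (CPM) of each of the 8 isotypes (log axis) in the 24 spleen libraries, with 1 point per mouse coloured by group and a black line at the median. The IgE points lie between 7.45 and 569 CPM, below every point of the other isotypes.

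IgE levels were highest in PBS-T spleens, but no group difference passed the test after adjustment. In NOD-FMT spleens IgE ranged from 10.8 to 282 CPM, with a median of 87.1 (n = 10). In PBS-T spleens it ranged from 55.7 to 569, with a median of 149 (n = 9). The NC spleens held 7.45, 12.8, 72.5, 73.6 and 171 CPM (n = 5). The groups overlapped: 7 of 9 PBS-T values fell within the NOD-FMT range, and PBS-T mice 2 and 8 lay above it.

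**Figure D2:**
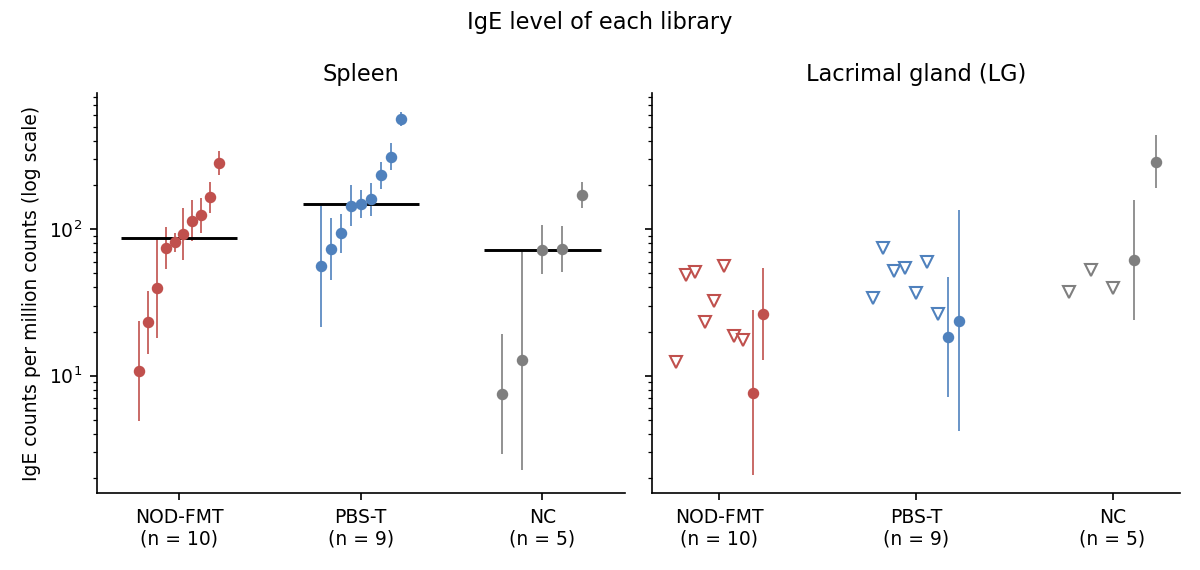
IgE CPM (log axis) in each spleen (left) and LG (right) library by group; filled points carry 95% Wilson intervals, black lines are group medians of the spleens, and open triangles stand at the limit of 3 counts for libraries with no IgE. PBS-T spleens reach 569 CPM, while 18 of 24 LG libraries held no IgE.

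On a log2 scale of CPM, with 0.5 added to the IgE count, the mean was 6.21 ± 1.36 (SD, n = 10) in NOD-FMT spleens, 7.32 ± 1.01 (SD, n = 9) in PBS-T spleens and 5.44 ± 1.75 (SD, n = 5) in NC spleens. NOD-FMT and PBS-T spleens differed by -1.11, which did not pass the test (two-sided exact permutation test over mice, p = 0.0606, adjusted p = 0.243 over the 8 group comparisons). NOD-FMT and NC spleens differed by 0.77 (exact permutation p = 0.358, adjusted p = 0.409). PBS-T and NC spleens differed by 1.88, a 3.68-fold higher IgE share (exact permutation p = 0.0220), but the adjusted p was 0.176. Without NC mouse 2 this difference was 1.59 (exact permutation p = 0.0643), and without NC mouse 5 it was 1.29 (exact permutation p = 0.0797). As a share of class-switched counts, the NOD-FMT to PBS-T difference was -1.43 (exact permutation p = 0.0159), and as a share of clonotypes it was -1.30 (exact permutation p = 0.0112), and with sequences of 2 or more mice removed it was -1.19 (exact permutation p = 0.0394). Leaving out NOD-FMT 8 or 10 or PBS-T 6 or 7 also took the unadjusted p under 0.05, so this call was not stable.

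Set against IgG1, the class from which a B cell may switch on to IgE, IgE counts were 0.209 to 4.77% of the IgG1 counts in NOD-FMT spleens (median 0.653%), 1.07 to 3.68% in PBS-T spleens (median 1.53%) and 0.0702 to 2.08% in NC spleens (median 0.648%). NOD-FMT mouse 8 gave the 4.77%, and it had the lowest IgG1 level of all spleens, 3457 CPM. Across the 24 spleens the IgE share followed that of IgG1 most closely by rank among the 7 other isotypes (Spearman rho = 0.493, permutation p = 0.0152; Pearson r = 0.421, permutation p = 0.0408). Neither passed adjustment over the 7 isotypes (adjusted p = 0.107 and 0.286). Without the 2 spleens farthest from the median IgG1 share, r was 0.536. Within groups r was 0.407 in NOD-FMT and 0.828 in PBS-T spleens, and in NOD-FMT spleens IgD had the higher r of 0.701. Shares of 1 library are parts of the same total.

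IgE held a smaller share of the counts in the LG than in the spleen. IgA made up 89.3% of the LG counts and 11.3% of the spleen counts, which leaves less room for every other class in the LG. A smaller LG share was not particular to IgE but held for every class other than IgA. IgM made up 4.49% of the LG and 68.7% of the spleen counts, and IgG1 0.359% and 1.06%. Levels of IgE over the counts without IgA were not compared. Only 6 of 24 LG libraries held any IgE, 40 counts of 2595348 in all, or 15.4 CPM (95% Wilson interval 11.3 to 21.0). Of these, NC LG 3 alone held 22 counts (288 CPM) and NC LG 2 held 4 (61.8 CPM), the pair that shared its sequences. Both shared clonotypes occurred with some isotype in the spleen of NC mouse 3 and neither in that of NC mouse 2, and whether the NC LG 2 counts came from the library of NC LG 3 was not tested. NOD-FMT mice 2 and 7 held 7 and 2 counts (26.5 and 7.65 CPM), and PBS-T mice 1 and 5 held 1 and 4 counts (23.8 and 18.4 CPM), so that the PBS-T library with the most clonotypes gave 4 of the 5 PBS-T counts. Counting error alone, at 3 counts, allowed libraries with no IgE up to 12.4 to 74.8 CPM, and 5 of the 6 LG libraries with IgE lay below the highest of these limits.

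IgE was present in 2 of 10 NOD-FMT and 2 of 9 PBS-T LG libraries (two-sided Fisher's exact test, p = 1). The difference on the log2 scale was -0.73 (exact permutation p = 0.142), -0.97 among the LG libraries marked as merged (exact permutation p = 0.181) and -0.60 among the others (exact permutation p = 0.468). Of these 19 libraries 15 were at 0, where the value is set by the total count alone. Within mice, the spleen exceeded the limit at 3 counts of its LG library in 17 of the 18 mice with no LG IgE, and it exceeded the LG level in 4 of the other 6 mice. PBS-T mouse 6 is among the 17 by a narrow margin, at 55.7 CPM against a limit of 54.0. Its level before the removal of shared sequences, 18.6 CPM, lies below that limit. The log2 values of spleen and LG differed by 3.18 ± 2.29 (SD), which is no measured fold where the LG value is set by depth, with the spleen higher in 22 of 24 mice (sign-flip permutation test, 100000 resamples, p = 2.0e-05, adjusted p = 6.0e-05). The difference was 3.60 in NOD-FMT mice (exact sign-flip permutation p = 0.00195), 3.98 in PBS-T mice (exact permutation p = 0.00391) and 0.87 in NC mice, 2 of which share LG sequences (exact permutation p = 0.562). All of these are differences in shares of all counts, and IgA fills more of the LG total than of the spleen total.

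The IgE repertoire of the spleens was made of small clonotypes. Sequences with the same IGHV gene, IGHJ gene and HCDR3 amino acids were counted as 1 clonotype, and the 633 IgE sequences formed 476 clonotypes summed over mice. Of these, 272 (57.1%) rested on a single count, and 26 clonotypes with 10 or more counts held 36.3% of all spleen IgE counts. The largest IgE clonotype of a spleen held 1 to 57 counts (median 9) and 9.52 to 100% of that spleen's IgE (median 28.2%). These sizes were taken after the removal of shared sequences. It took 40 IgE counts from NOD-FMT mouse 10 and 19 from PBS-T mouse 4, so large clonotypes may be missing there. Among these 24 leading clonotypes, 13 also occurred as IgG1, 14 as IgM and 7 as IgA in the same spleen, and 3 occurred as IgE alone.

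The 5 largest clonotypes differed widely in mutation and in the company they kept. The clonotype ARWTGTRAY of PBS-T mouse 8 (IGHV1-9, IGHJ3) held 57 IgE counts in 7 sequences with 12 to 14 mutations; it also held 18 IgG2b, 3 IgG2c and 2 IgM counts and no IgG1. In the same spleen, ARNPETGFSFDY (IGHV2-2, IGHJ2) held 40 IgE counts in 6 sequences with 0 to 3 mutations and no count of any other isotype. APYDYTGSWFAY of NOD-FMT mouse 3 (IGHV8-5, IGHJ3) was the only IgE clonotype found with all 7 other isotypes. It held 41 IgE counts, 2984 IgM, 490 IgA, 382 IgG2b, 218 IgG3, 22 IgG2c, 9 IgD and 2 IgG1 counts, and no other isotype shared an IgE nucleotide sequence. ANYYGSSSFAY of NOD-FMT mouse 8 (IGHV1-69, IGHJ3) held 29 IgE counts, 42.6% of that spleen's IgE, beside 5 IgG1 counts. ATMVWYFDV of NOD-FMT mouse 10 (IGHV1-26, IGHJ1) held 28 IgE counts with 0 to 1 mutations beside 58 IgG1 counts, of which 49 had a nucleotide sequence found as IgE.

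After the removal of shared sequences, nearly all IgE clonotypes occurred in IgE form in 1 mouse, much as other isotypes did in their own form. Of 474 distinct IgE clonotypes in the spleens, 473 (99.8%) were in IgE form in 1 spleen, beside 99.0% of 14519 IgG1 and 94.1% of 2439355 IgM clonotypes in their own form, at depths that differ. Of the IgE clonotypes, 49 (10.3%) were found with some isotype in 2 or more spleens. All of these shares depend on the removal, which had taken out sequences present in 3 or more mice before recurrence was counted. Summed over spleens it left 476 of 487 IgE clonotypes, and recurrence before it was not counted. The clonotype in IgE form in several mice was AREGFAY (IGHV1-12, IGHJ3), in the spleens of NOD-FMT mice 1 and 3 and PBS-T mouse 8 with 1, 2 and 1 IgE counts and 2 to 5 mutations. It occurred with some isotype in 13 spleens. In each of these 3 spleens it was found as IgG1 too, with 29, 87 and 4 counts. The 3 nucleotide sequences differ, as shown with the same capitals.
NOD-FMT 1, AREGFAY: gcaagaGAGGggtttgcttac
NOD-FMT 3, AREGFAY: gcaagaGAGGGAtttgcttac
PBS-T 8, AREGFAY: gcaagaGAAGggtttgcttac

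In the LG the 14 IgE sequences formed 10 clonotypes summed over mice. The HCDR3 of the leading LG clonotypes is given because a few sequences made up most of the LG signal.
NC 3 and NC 2, ARDYYGSSFDY: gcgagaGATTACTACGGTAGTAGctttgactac
NC 3 and NC 2, ASRGSSYWYFDV: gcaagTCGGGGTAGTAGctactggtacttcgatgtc
NOD-FMT 2, ARRLGGGAMDF: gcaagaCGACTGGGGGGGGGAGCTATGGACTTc
NOD-FMT 7, ARRNGNYPYYAMDY: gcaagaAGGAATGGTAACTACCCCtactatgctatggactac
ARDYYGSSFDY (IGHV9-4, IGHJ2) held 21 counts in NC LG 3 and 3 in NC LG 2, with 0 to 1 mutations and no other isotype. ASRGSSYWYFDV (IGHV9-3, IGHJ1) held 1 count with 5 mutations in each, beside 20 IgA counts in NC LG 3 and 2 in NC LG 2. ARRLGGGAMDF of NOD-FMT 2 (IGHV1-53, IGHJ4) held 7 IgE and 47 IgA counts, and 43 of the IgA counts had a nucleotide sequence found as IgE. ARRNGNYPYYAMDY of NOD-FMT 7 (IGHV1-81, IGHJ4) held 2 IgE and 85 IgA counts, 74 of them with such a sequence. The remaining LG clonotypes were 3 of PBS-T 5, which were ARWDDVRLDY with 2 counts and ARDYYGSSVDY and ARDYGSSPDY with 1 each, and AKVMDY of PBS-T 1 with 1 count; they carried 4 to 9 mutations. No LG IgE clonotype occurred as IgE in the spleen of its mouse, and 3 of 10 occurred there with some isotype, 2 of NC LG 3 and 1 of NOD-FMT LG 2. Of 476 spleen IgE clonotypes 35 (7.35%) occurred with some isotype in the LG of the same mouse. The like share of the other isotypes was not counted, so this is no measure of a trait of IgE. It is also pooled over LG libraries that differ in their number of clonotypes.

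IgE sequences were less mutated than IgG1 and more mutated than IgM. Mutations are the mismatches to the germline V gene that the authors deposited, averaged over unique sequences in the 21 spleens with 5 or more IgE sequences. IgE had 2.31 ± 1.33 mutations (SD, n = 21), IgG1 3.34 ± 0.62, IgA 3.94 ± 0.62 and IgM 0.852 ± 0.415. Within mice IgE differed from IgG1 by -1.03 ± 1.44 (SD; lower in 15 of 21 mice, sign-flip permutation p = 0.00447, adjusted p = 0.00447 over 3 comparisons) and from IgM by 1.46 ± 1.37 (SD; higher in 17 of 21 mice, sign-flip permutation p = 0.00014, adjusted p = 0.00021). Sequences with no mutation made up 44.9% ± 13.9 (SD) of IgE, 24.5% ± 5.24 of IgG1 and 73.9% ± 7.38 of IgM. Of the 633 IgE sequences, 266 had no mutation, 264 had 1 to 5, and 103 had over 5, up to 25. Weighted by counts, the gap to IgG1 was -0.316 (sign-flip permutation p = 0.360).

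**Figure D3:**
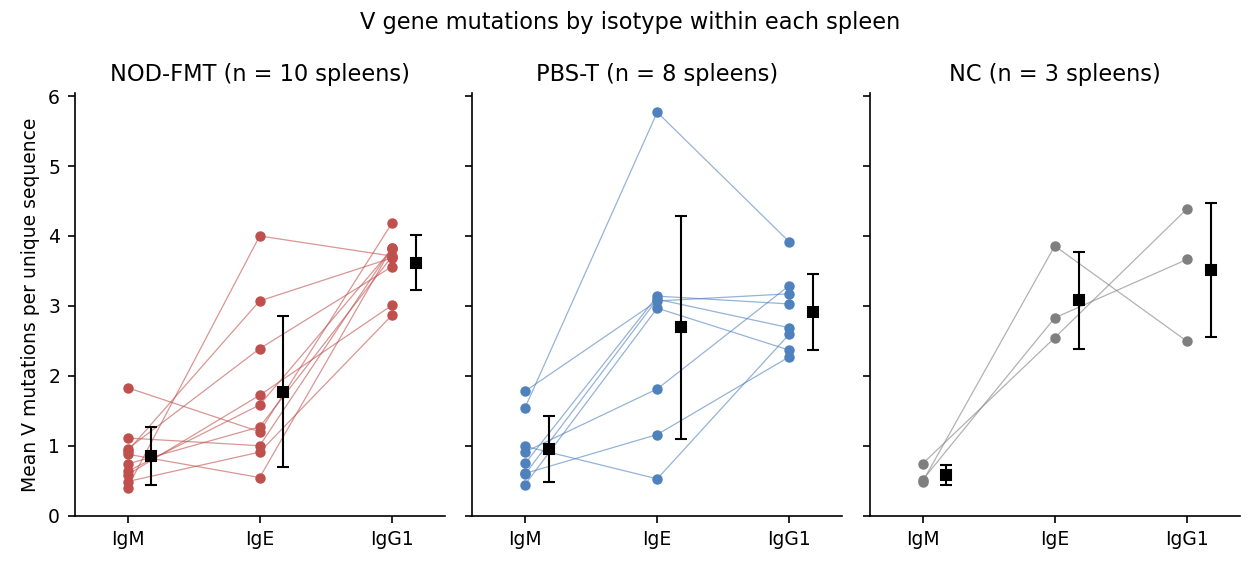
Mean number of V mutations per unique IgM, IgE and IgG1 sequence in each spleen with 5 or more IgE sequences, in 1 panel per group; thin lines join the values of a mouse, and black squares with bars give mean and SD. In the NOD-FMT panel IgE lies below IgG1 in 9 of 10 mice, and in the PBS-T panel in 4 of 8.

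The gap between IgE and IgG1 was wider in NOD-FMT than in PBS-T spleens. In NOD-FMT spleens IgE carried 0.545 to 4.00 mutations (median 1.43) and IgG1 2.86 to 4.18 (median 3.71), and IgE was lower in 9 of 10 mice. In PBS-T spleens IgE carried 0.526 to 5.77 (median 3.02) and IgG1 2.27 to 3.91 (median 2.86), and IgE was lower in 4 of 8 mice. NC mice 1, 3 and 4 had IgE at 2.83, 2.55 and 3.86 and IgG1 at 3.66, 4.39 and 2.50. The mean gap was -1.85 in NOD-FMT mice (exact sign-flip permutation p = 0.00391) and -0.22 in PBS-T mice (exact permutation p = 0.625). These gaps differed by -1.63 (exact permutation p = 0.0126, adjusted p = 0.0377 over 3 such contrasts). IgE itself was 1.77 ± 1.08 (SD, n = 10) in NOD-FMT and 2.69 ± 1.60 (SD, n = 8) in PBS-T spleens, a difference of -0.92 that did not pass the test (exact permutation p = 0.164, adjusted p = 0.328) and was -0.48 without PBS-T mouse 7. IgG1 of the same spleens was 3.62 and 2.92, a difference of 0.702 (exact permutation p = 0.00752), which was 0.461 when sequences were weighted by their counts (exact permutation p = 0.228). Among sequences of 2 or more counts the gaps differed by -0.752 (exact permutation p = 0.270), with 7 mice in each group, and among spleens with 20 or more IgE sequences by -1.14 (exact permutation p = 0.119), with 3 NOD-FMT and 6 PBS-T mice.

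IgE clonotypes were often found in IgG1 form within the same spleen. In the 21 spleens with 5 or more IgE clonotypes, 35.1% ± 20.3 (SD) of IgE clonotypes also held IgG1, with single spleens from 0 to 80%. The same share was 3.77% ± 1.79 of IgG2b, 4.14% ± 1.59 of IgG2c, 4.90% ± 1.82 of IgG3, 3.00% ± 1.86 of IgA, 0.123% of IgM and 0.105% of IgD clonotypes. NOD-FMT mice 2 and 9, with 5 and 8 IgE clonotypes, had none with IgG1. These shares are a description, because clonotype numbers cap them. A spleen held a median of 501 IgG1 clonotypes beside 17 of IgE, 4292 of IgA and 100326 of IgM, so that no more than a mean of 0.601% of IgM, 2.78% of IgD, 15.9% of IgA and 22.3% of IgG2b clonotypes could have held IgG1. This cap lay below the IgE share of the same spleen in 19, 19, 18 and 16 of 21 mice. Seen from the other side, 1.23% ± 0.816 of IgG1 clonotypes also held IgE, against 19.2% ± 5.71 that held IgA and 21.0% ± 6.83 that held IgM.

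To compare isotypes without this cap, the counts of each isotype were thinned to the IgE counts of its spleen with IgG1 kept whole, which favours large clonotypes. The share with IgG1 was then 15.7% ± 8.10 of IgG2b, 15.5% ± 9.25 of IgG2c, 15.3% ± 9.43 of IgG3, 12.2% ± 7.33 of IgA, 4.81% ± 3.96 of IgM and 0.286% ± 0.451 of IgD clonotypes (SD, n = 21). IgE, at 35.1%, was above IgG3 by 19.8 percentage points in 16 of 21 mice (sign-flip permutation p = 0.00134, adjusted p = 0.00134 over 12 comparisons), above IgG2c by 19.5 in 16 and above IgG2b by 19.3 in 17. It was above IgA by 22.9 points in 17 mice and above IgM and IgD in 19. The adjusted p of these comparisons ranged from 3.43e-05 to 0.00134 (sign-flip permutation), but they were chosen after the shares had been seen and are no independent evidence of the difference.

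**Figure D4:**
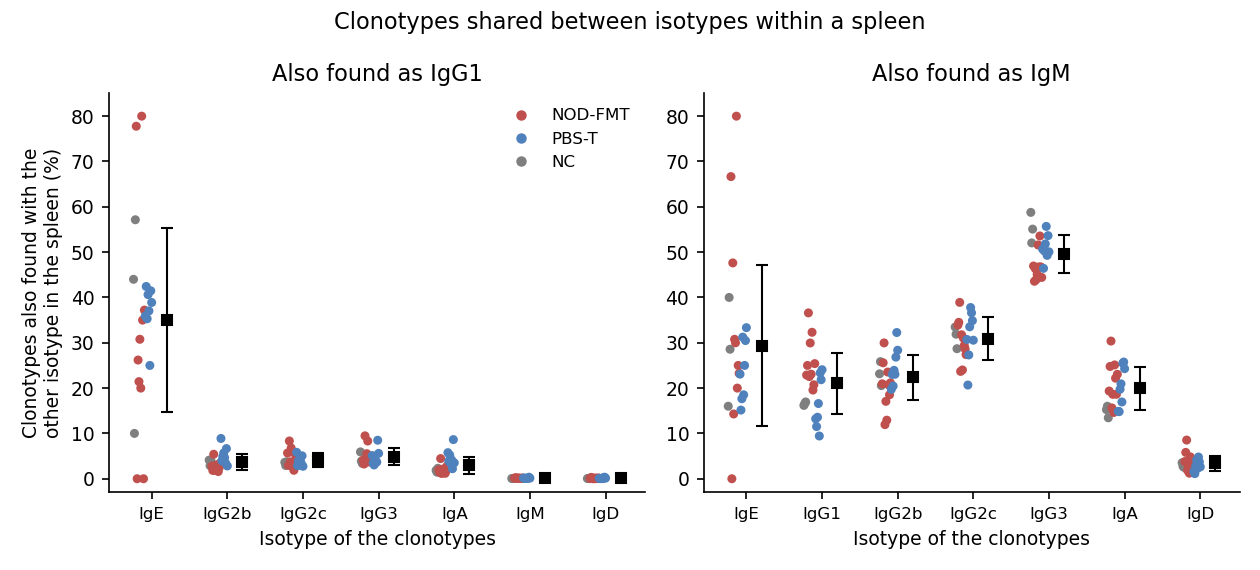
Percent of the clonotypes of each isotype that were also found as IgG1 (left) or IgM (right) in the same spleen, with 1 point for each of the 21 spleens with 5 or more IgE clonotypes, coloured by group, and black squares with bars for mean and SD. With IgG1 as partner IgE has a mean of 35.1% and no other isotype exceeds 9.47% in any spleen, but the number of IgG1 clonotypes caps IgM at a mean of 0.601% and IgA at 15.9%; with IgM as partner, where no cap applies, IgE has a mean of 29.4% and IgG3 of 49.6%.

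With IgM as the partner, the place of IgE depended on how the isotypes were matched in depth. IgM was found in 29.4% ± 17.8 (SD, n = 21) of IgE clonotypes, against 3.39% ± 1.69 of IgD, 21.0% ± 6.83 of IgG1, 22.4% ± 5.00 of IgG2b, 30.9% ± 4.68 of IgG2c, 49.6% ± 4.24 of IgG3 and 20.0% ± 4.74 of IgA clonotypes. With all counts, IgE was below IgG3 by 20.3 percentage points (lower in 18 of 21 mice, adjusted sign-flip permutation p = 0.000465) and above IgG1 by 8.35 points (adjusted p = 0.0203) and IgA by 9.37 (adjusted p = 0.0171). The differences from IgG2b and IgG2c did not pass the test (adjusted sign-flip permutation p = 0.0886 and 0.696). With each isotype thinned to the IgE counts, the difference from IgG1 was -12.0 points instead, and IgM was found in 41.3% ± 15.2 of IgG1, 55.2% ± 12.8 of IgG2b, 63.6% ± 11.2 of IgG2c, 77.2% ± 7.64 of IgG3 and 53.0% ± 12.7 of IgA clonotypes. All of these were above IgE (adjusted sign-flip permutation p = 3.43e-05 to 0.00134), so that IgE was below IgG3 under both and its order against IgG1, IgG2b and IgA turned. IgE was above IgD by 26.0 points with all counts (higher in 20 of 21 mice, adjusted sign-flip permutation p = 3.43e-05) and by 25.5 when thinned, but by -3.76 among sequences of 2 or more counts. That last setting keeps little of IgD, because a mean of 99.7% of IgD sequences had a single count.

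Pooled over the 24 spleens, 173 of 476 IgE clonotypes (36.3%) also held IgG1, 162 (34.0%) IgG2b, 135 (28.4%) IgM, 121 (25.4%) IgA, 69 (14.5%) IgG2c, 23 (4.83%) IgG3 and 19 (3.99%) IgD. No test compared these partners, whose own counts differ. A further 174 (36.6%) were IgE alone, and 194 held 2 or more other isotypes. Found alone likewise were 8105 of 19324 IgG3, 8698 of 14729 IgG1, 72358 of 102411 IgA and 2605647 of 2672756 IgM clonotypes, at depths that differ. Of the 174, 45 (25.9%) had an HCDR3 whose nucleotides and J gene held more counts under another V gene of the same spleen. An example, chosen after its values were seen, is ANYYGSSSFAY of NOD-FMT mouse 8, found with IgG1 under IGHV1-69 and as IgE alone under IGHV1-4, IGHV1-80 and IGHV14-2. Over all IgE clonotypes this held for 47 of 476 (9.87%), 44 of them with a single IgE count, and it held for 19.0% of IgG1 and 4.28% of IgM clonotypes. Among clonotypes of 1 isotype alone it held for 24.4% of IgG1, 24.5% of IgG2b, 35.5% of IgG2c, 25.8% of IgG3, 28.7% of IgA and 4.16% of IgM. The 25.9% of IgE thus lay within the range of the other switched isotypes. With such sequences left out for every isotype, an alternative chosen after seeing the data, 129 of 429 IgE clonotypes (30.1%) were IgE alone, and the mean share with IgG1 was 37.4% ± 20.5 (SD, n = 21). At the level of nucleotides, 258 of 633 IgE sequences (40.8%) were identical to a sequence of another isotype in the same spleen, 133 of them (21.0% of all) to IgG1, 112 to IgG2b, 98 to IgM and 78 to IgA. In 40 of the 258 the IgE count was the higher.

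Inside the 173 clonotypes that held both classes, IgE sequences had fewer mutations than IgG1 in 78, more in 53 and as many in 42, and the median difference was 0. Against IgM, IgE had fewer in 67 of 135 clonotypes, more in 27 and as many in 41. Each class entered as the mean over its sequences in the clonotype, and only 106 of the 476 IgE clonotypes held 2 or more IgE sequences. Of the 135 clonotypes with IgM, 77 had no IgE mutation, so that IgE could only be equal or lower there. These tallies therefore do not rank the classes. Clonotypes that were IgE alone averaged 3.00 mutations, those with IgG1 2.11 and those with IgM 1.29, as a description over 174, 173 and 135 clonotypes that share mice. The medians were 1, 1 and 0, and 68 (39.1%), 58 (33.5%) and 77 of these clonotypes had no mutation in any IgE sequence. IgE-alone clonotypes thus had both a higher mean and a larger unmutated share than those with IgG1, but they were also smaller. A single IgE count was held by 124 of the IgE-alone clonotypes and by 77 of those with IgG1. A clonotype with fewer sequences is more easily counted as unmutated. The 45 IgE-alone clonotypes with more counts under another V gene averaged 4.30 mutations and the other 129 averaged 2.55.

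Between NOD-FMT and PBS-T spleens, no difference in the share with IgG1, IgM or IgA passed the test, and the other partners and the NC mice were not tested. IgE clonotypes with IgG1 made up 32.8% ± 27.4 (SD, n = 10) in NOD-FMT and 37.1% ± 5.53 (SD, n = 8) in PBS-T spleens, a difference of -4.24 points (exact permutation p = 0.669). Leaving out 1 mouse gave -9.48 (without NOD-FMT 7) to -0.593 points (without NOD-FMT 2). With IgM the difference was 9.45 points (exact permutation p = 0.319; 4.31 to 13.2 with 1 mouse left out), and with IgA it was -5.75 (exact permutation p = 0.335; -8.25 to -3.21). The spread was far wider in NOD-FMT spleens, 0 to 80% with IgG1, than in PBS-T spleens, 25.0 to 42.4%. NOD-FMT mice 2 and 7, at 0 and 80%, had 5 IgE clonotypes each.

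IGHV families of IgE were compared with those of IgG1 and IgM, and 1 family passed against IgM. The IGHV1 family, the largest of the mouse, supplied 66.5% ± 15.1 (SD, n = 21) of IgE clonotypes, against 66.7% ± 5.42 of IgG1 and 60.4% ± 2.63 of IgM. Against IgG1, 0 of 11 families passed an adjusted p of 0.05 (0% called; sign-flip permutation within mice), and 1 had an unadjusted p under 0.05. Against IgM, 1 of 10 families passed (10% called). This was IGHV5, at 3.68% ± 3.95 of IgE and 7.55% ± 0.811 of IgM clonotypes (a difference of -3.87 percentage points, IgE higher in 6 of 21 mice, adjusted sign-flip permutation p = 0.0101). The count of mice does not set IGHV5 apart. IgE was also higher in 6 mice for IGHV9, at a difference of 0.196 points, and in 7 for IGHV10, at 1.58 points. In the spleens with 20 or more IgE clonotypes, 0 families passed. With 1 V gene kept per HCDR3, 1 family passed against each of IgG1 and IgM. IGHV5 held 6.75% ± 1.65 of IgG1 clonotypes, and it was the family with the unadjusted p under 0.05 there (adjusted p = 0.0634). IGHV10 made up 4.22% ± 8.99 of IgE, 1.50% of IgG1 and 2.64% of IgM clonotypes and did not pass either test (adjusted sign-flip permutation p = 0.314 and 0.927).

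**Figure D5:**
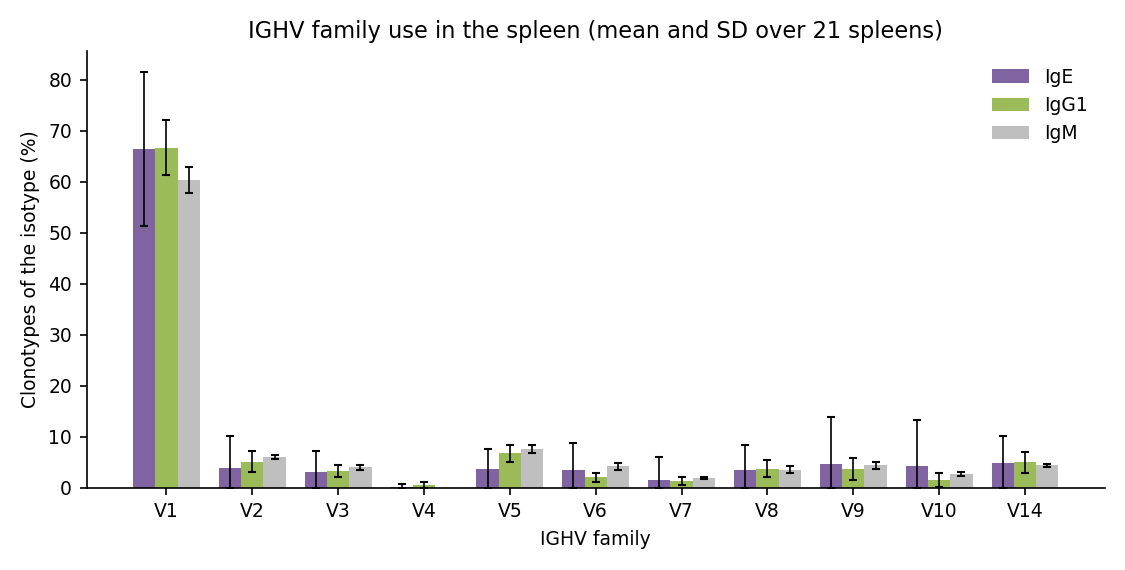
Mean percent of IgE, IgG1 and IgM clonotypes that used each IGHV family, with SD over 21 spleens as bars (cut at 0; no IgM bar for IGHV4, which was under 0.5% in that comparison). IGHV1 leads in all 3 isotypes, with 66.5, 66.7 and 60.4%, and IGHV5 is lower in IgE (3.68%) than in IgM (7.55%).

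Among single genes, 79 IGHV genes were used by IgE in the spleens, and 78 of them were matched by symbol in GENCODE. The 10 with most IgE clonotypes held 167 of 476 (35.1%), and their shares are a description. IGHV1-26 (chr12:114788372-114788805) led with 36 clonotypes in 14 mice, or 7.56%, and it was also first in IgG1 (5.55%) and IgM (7.75%). IGHV1-64 (chr12:115507545-115508031) followed with 24 clonotypes, or 5.04%, against 4.75% of IgG1. IGHV1-81 and IGHV1-69 held 18 and 15. IGHV1-12 (chr12:114615850-114616318), the gene of the recurrent clonotype AREGFAY, held 13 clonotypes in 7 mice, 2.73% of IgE against 0.903% of IgG1 and 0.450% of IgM, where it ranked 43 and 57. IGHV1-18, IGHV9-3 and IGHV1-53 also held 13 each, and 5 genes held 11 each, of which IGHV1-55 and IGHV1-22 are counted among the 10 and IGHV1-4, IGHV8-8 and IGHV1-72 are not. All 10 lie on the minus strand of chromosome 12. Of the J genes, IGHJ2 held 33.4% of IgE, 29.5% of IgG1 and 33.2% of IgM clonotypes. The HCDR3 of IgE averaged 11.9 ± 0.793 amino acids (SD, n = 21), beside 11.7 ± 0.306 for IgG1.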

How the data were processed

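BCR heavy-chain repertoires were analysed for 10 NOD-FMT, 9 PBS-T and 5 NC mice, with 1 LG and 1 spleen library each, grouped and numbered by their titles. Per the labels and the study's methods, the authors made cDNA with constant-region primers that carried UMIs, sequenced the amplicons on a NovaSeq, joined reads with PEAR, filtered them on base quality, built UMI consensus sequences with Clustal Omega without singletons, assigned isotypes against IMGT references and V and J genes with IgBLAST, and kept productive sequences. The labels name the build mm10; the germline release is not given in the sources used here. The deposited count of a sequence is its number of UMI consensus sequences, and the deposited fraction, which the authors divided by the library total, was not used further. The authors also deposited the number of V mutations and the V alignment length.

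The IgE gene was taken from the constant gene call before its allele. The members and lists were chosen with earlier results of these data known. Nucleotide sequences present in 3 or more mice of the same tissue were removed in the main analysis. IgE shares were compared as log2 counts per 1000000 (CPM) with 0.5 added. Mutations were averaged over unique sequences in libraries with 5 or more IgE sequences, and isotype partners in libraries with 5 or more IgE clonotypes. V families with a mean share of 0.5% or more were tested. Groups were compared by exact two-sided permutation over mice (92378 splits for 10 against 9 mice), and values within mice by two-sided sign flips, exact within groups and by 100000 resamples over all mice, where the smallest possible p is 1e-05. P-values were adjusted by Benjamini-Hochberg over 8 group tests, 3 within-mouse tests, 12 partner tests, 7 correlations or all V families. Intervals are 95% Wilson intervals and cover counting error only, as do the limits at 3 counts. Clonotypes named are, after the removal, the 5 with most counts among spleens, those in IgE form in 3 or more spleens, and all in the LG. V genes named are the 10 with most IgE clonotypes. Coordinates and gene sequences are those of GRCm38 and GENCODE M21. The scripts were tested on simulated data and used Python 3.11.15, NumPy 2.4.6, SciPy 1.17.1 and pandas 2.3.3. Total counts after removal ranged from 40105 to 2032338 per library. To compare partners between isotypes, the counts of each isotype were also thinned to the IgE counts of its spleen (mean of 10 draws). Alternatives changed the removal, the minimum count, the denominator, the weighting, the depth, the V gene in the clonotype, the mice and the test.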

Additional observations from a re-analysis of the deposited data

Results flagged for a closer look

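Outlying samples were sought in 14 sets of 4 to 10 libraries with Dixon's test, which chance meets in about 1 of 20 sets. Among LG libraries the test picked NOD-FMT 2, at 26.5 IgE CPM, where 8 of 10 libraries held no IgE and their limits at 3 counts reached 55.9 CPM, so that this library is not shown to differ from them. It also picked NC 3, at 288 CPM, where the limits of the 3 libraries with no IgE reached 52.9 CPM. Among spleens, PBS-T 8 stood apart with 569 IgE CPM. The test also picked PBS-T 7 for a low share of IgE clonotypes also found as IgG1, at 25.0%. That share is 3 of 12 clonotypes, and its counting error was not tested. The NOD-FMT and PBS-T groups differed in the gap between IgE and IgG1 mutations, by -1.63 mutations (exact permutation p = 0.0126). Leaving out each NOD-FMT or PBS-T mouse in turn gave -1.89 to -1.33 (exact permutation p = 0.00366 to 0.0291).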

How the results depend on the processing

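Outside the settings that left out a mouse, 111 of 129 recomputed values of 14 results kept their direction and their side of the threshold. The threshold in this section is an unadjusted p of 0.05, except that V families and correlations were called by adjusted p. By it PBS-T against NC spleens passed in the main setting (exact permutation p = 0.0220), though the adjusted p was 0.176. Where no cause is named, it was not tested. The spleen difference of PBS-T from NC was 1.74 without the removal of shared sequences (exact permutation p = 0.0574) and 4.51 ranks in a rank sum (exact p = 0.0599). The spleen difference of NOD-FMT from PBS-T was -1.19 with sequences of 2 or more mice removed (exact permutation p = 0.0394), -1.43 as a share of class-switched counts and -1.30 as a share of clonotypes. The LG difference was -1.09 without the most abundant IgE clonotype, which left 18 of 19 libraries at 0. That value compares total counts (1496197 in NOD-FMT and 745526 in PBS-T libraries) and not IgE. Pooled with that clonotype, IgE was at 6.02 and 6.71 CPM, and at 5.53 and 5.59 CPM before the removal of shared sequences. In NC mice alone, spleen exceeded LG by 0.87 (exact permutation p = 0.562), IgE mutations differed from IgG1 by -0.438 (exact permutation p = 0.75) and from IgM by 2.50 (exact permutation p = 0.25), with 3 mice for mutations, where p cannot go below 0.25. The gap to IgG1 was -0.224 in PBS-T mice and -0.316 weighted by counts. With a minimum count of 2, the mutation difference of NOD-FMT from PBS-T turned to 0.0369 (exact permutation p = 0.959), the V families called against IgM numbered 3, and the difference from IgD in the share with IgM turned from 26.0 to -3.76 points. A mean of 99.7% of IgD sequences had a single count, so that this minimum kept few of them. With 20 or more clonotypes 0 families were called against IgM, and without removal, or with 1 V gene kept per HCDR3 (an alternative chosen after seeing the data), 1 was called against IgG1. With each isotype thinned to the IgE counts of its spleen (an alternative chosen after seeing the data), the shares with IgM turned to -12.0 points against IgG1, -25.9 against IgG2b and -23.6 against IgA. With the other isotypes thinned to 71855 counts, the shares with IgM turned to -0.425 points against IgG1, -3.33 against IgG2b and -0.0909 against IgA.

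With the number as a replicate block, the spleen difference of NOD-FMT from PBS-T was -1.33 (exact sign-flip permutation p = 0.0156) and that of PBS-T from NC was 2.15 (exact sign-flip permutation p = 0.0625, the smallest that 5 pairs allow). Nothing in the sources ties mice of 1 number together, and 4 of 9 pairs correlated above 0.1 over the isotypes (-0.860 to 0.761), while the IgE shares of the 9 pairs had a correlation of 0.487.

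Leaving out each mouse in turn gave -1.33 to -0.818 for NOD-FMT against PBS-T spleens, past the threshold without NOD-FMT 8 or 10 or PBS-T 6 or 7, 0.175 to 1.27 for NOD-FMT against NC, and 1.29 to 2.38 for PBS-T against NC, not past it without NC 2 or 5. The LG difference ranged from -0.98 to -0.51, past the threshold without NOD-FMT 2. That call compares mostly total counts, since 15 of these LG libraries were at 0 and their values are set by depth. V families called numbered 0 to 1 against IgG1 (1 without NOD-FMT 3, 4, 7 or 9 or PBS-T 4) and 1 to 2 against IgM (2 without NOD-FMT 7), and correlations past the threshold 0 to 1 (1 without NOD-FMT 8). The difference from IgG2c in the share with IgM ranged from -4.09 to 0.0882 points, turning positive without NOD-FMT 2. In the LG, 18 of 24 libraries held no IgE.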
